A study of Mus musculus with 2 samples.

Results

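The 6 genes described here are Foxp3, Ikzf2 and Gata3, which encode transcription factors, Il2ra and Il1rl1, which encode receptor chains, and Areg, which encodes a growth factor. They were chosen by name as genes of regulatory T cells and of tissue repair, and are 6 of the 16184 genes in the deposited tables. All 6 were detected in both libraries. Their levels were followed across T cell subsets, which were gated on UMIs (unique molecular identifiers, a count of captured RNA molecules) of Cd3e with Cd4, Cd8b1 or Trdc, and across other leukocyte gates. The comparison was between a library labelled DT and a library labelled PBS.

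Regulatory T cells are CD4 T cells that hold other immune cells in check, and the forkhead factor Foxp3 maintains their identity. They carry the alpha chain of the IL-2 receptor (CD25, from Il2ra) and take up the IL-2 made by other T cells. Many also express Helios, the zinc finger factor that Ikzf2 encodes. In barrier tissues such as lung, a portion of them carries ST2, the IL-33 receptor encoded by Il1rl1, together with Gata3, and can release amphiregulin, an EGF receptor ligand encoded by Areg that acts on epithelium during repair. Type 2 innate lymphoid cells share Gata3, Il1rl1, Il2ra and Areg, and basophils share Il1rl1.

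The study asked what the loss of club cells, the secretory cells of the airway lining, does to leukocytes in lungs that carry tumours and were irradiated. Mice of the strain Scgb1a1cre /iDTR received 150000 HKP1 tumour cells by tail vein. In this strain a Cre driven by Scgb1a1, a club cell gene, switches on a diphtheria toxin receptor. Every mouse, PBS or DT, was given tamoxifen (2 mg per 20 g, 5 days from day 3 to day 7), 250 ug of anti-PD-1 antibody on day 6, and radiation of 4 Gy a day for 3 days from day 10 to day 12. The DT group was given 2 doses of diphtheria toxin (600 ng per 20 g) on days 8 to 9, and the PBS group was the control. The treatment text of the PBS sample lists the toxin as well, and the series' design text, which makes PBS the control, was followed. The model is limited by its driver, since the toxin acts on cells in which Scgb1a1 drove Cre. Live CD45-positive lung cells were sorted 24 to 48 h after radiation and captured for 10x Genomics 3′ sequencing. Cells of 4 mice made up each group, sequenced as 1 library, and no cell is tied to an animal. With 1 library per group there was no test between groups. Every interval below is an exact 95% interval that covers counting error only, and none of them holds the variation between mice.

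The libraries held 5702 PBS cells and 6203 DT cells, with a median of 3719 and 2909 UMIs per cell, and 8 cell barcodes occurred in both. Of these cells, 5651 and 5896 passed the filters. The CD4 gate (Cd3e and Cd4, without Cd8b1 or Trdc) held 363 PBS and 345 DT cells at like depth, with medians of 4619 and 4587 UMIs. All 6 of the other T cell markers examined were detected in it, and Cd3d was found in 96.4% and 95.7% of its cells. The same gate also held RNA of other cells. The summed level of 6 mononuclear phagocyte markers in it was 5163 CPM (UMIs of a gene per 1000000 UMIs of the summed cells) in PBS and 2754 CPM in DT, and that of 6 neutrophil markers was 866 and 2044 CPM. None of these 12 markers was at 0 in either library. Sex-linked RNA differed too. In the CD4 gate, 206 PBS cells had Y-linked UMIs and no Xist (male-called) and 14 had Xist alone (female-called), against 34 and 190 DT cells. The part of these differences in the results below was not tested, and values within called cells are given where they move a result.

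The genes lie at chrX:7573644-7595245 (Foxp3, plus strand), chr1:69531214-69687245 (Ikzf2, minus strand), chr2:9857078-9890034 (Gata3, minus strand), chr2:11642807-11693193 (Il2ra, plus strand), chr1:40429570-40465415 (Il1rl1, plus strand) and chr5:91139599-91148432 (Areg, plus strand) of GRCm38 (GENCODE vM21). On the same strand Flicr overlaps Foxp3, Gm28112 overlaps Ikzf2 and Gm37881 overlaps Il2ra. These 3 neighbours have columns of their own in the tables, so reads of overlapping stretches may have been split between them and the named genes. Ppp1r3f overlaps Foxp3 on the other strand, and whether counting used the strand is not given in the labels. Il18r1, another receptor of the IL-1 family, starts 137 bases after Il1rl1 on the same strand.

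Promoter sequence from RefSeq (GRCm38.p6) was matched for 5 of the 6 genes, as 7 start sites. It was searched on both strands for 4 motifs, whose shares are over 32851 RefSeq windows of 250 bases before a start site. STAT5, the factor downstream of the IL-2 receptor, was given the letters TTCNNNGAA, found in 7.02% of these windows. A forkhead motif, for the family that Foxp3 belongs to, was spelled TGTTTAC and found in 3.17%. The GATA family was searched as AGATAA, which 9.99% of the windows held. NFAT, a factor of T cell receptor signalling and a partner of Foxp3, was searched as GGAAAA, held by 20.4%. The windows with a match are shown. Whether a match bears on the RNA of any gene below was not tested. Each is the 250 bases before a start site on the plus strand, 5′ to 3′, at chrX:7580233-7580482, chr1:40429320-40429569 and chr1:40439379-40439628, with matches in capitals.
Foxp3, second start site: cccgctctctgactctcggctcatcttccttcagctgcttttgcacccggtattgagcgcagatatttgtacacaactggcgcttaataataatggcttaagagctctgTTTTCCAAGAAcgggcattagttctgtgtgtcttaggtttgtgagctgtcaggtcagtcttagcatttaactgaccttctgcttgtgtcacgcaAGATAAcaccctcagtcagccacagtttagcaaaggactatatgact
Il1rl1, first start site: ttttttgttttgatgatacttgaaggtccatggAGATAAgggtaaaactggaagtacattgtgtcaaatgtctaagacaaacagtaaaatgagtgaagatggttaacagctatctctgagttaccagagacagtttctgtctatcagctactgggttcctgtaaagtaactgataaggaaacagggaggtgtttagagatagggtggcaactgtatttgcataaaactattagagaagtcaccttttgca
Il1rl1, second start site: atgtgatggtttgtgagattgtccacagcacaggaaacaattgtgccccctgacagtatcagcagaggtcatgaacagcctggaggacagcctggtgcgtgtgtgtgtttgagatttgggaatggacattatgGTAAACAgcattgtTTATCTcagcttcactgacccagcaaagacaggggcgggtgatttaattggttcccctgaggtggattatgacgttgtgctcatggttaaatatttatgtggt
Positions are counted from the start site, with -1 the last base before it. The Foxp3 window held an NFAT match on the minus strand at -141 that overlaps a STAT5 match at -139, and a GATA match at -47. The Il1rl1 windows held GATA matches at -217 and, on the minus strand, at -103. The second window also held a forkhead match at -117 on the minus strand. The other 4 windows, of Foxp3 (first start site), Il2ra, Areg and Gata3, held none of the 4 letter strings. A match describes the letters and shows no binding.

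Foxp3, the defining factor of regulatory T cells, was found in T cells with Cd4 and in T cells with none of the 3 subset genes. In the CD4 gate 64 of 363 PBS cells (17.6%, interval 13.9 to 21.9%) and 69 of 345 DT cells (20.0%, 15.9 to 24.6%) had a Foxp3 UMI, so the shares differed by less than their counting intervals. At an equal depth of 1000 UMIs per cell the expected shares were 6.79% and 8.14%. In the Cd3e-only gate, T cells without a UMI of Cd4, Cd8b1 or Trdc, 61 of 428 PBS and 60 of 360 DT cells had Foxp3. The CD8 gate held 4 of 404 and 8 of 361 such cells, with 11 and 28 UMIs, and the Trdc gate 1 of 71 and 0 of 70.

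Foxp3 was rare in the named gates outside T cells. In the Cd79a gate of B cells, which should lack the gene, 2 of 1389 PBS cells (0.144%) and 0 of 1073 DT cells had a UMI, at median depths of 2831 and 2427 UMIs; by a limit of 3 cells, the 0 allows a share with a UMI of up to 0.280%. The Csf1r gate held 2 of 869 and 1 of 836, the mixed myeloid gate 1 of 405 and 3 of 472 (1 and 11 UMIs), and no cell of the Ncr1, Il7r or Mcpt8 gates had one. Of cells that met no gate, 24 of 712 PBS and 19 of 1039 DT cells had Foxp3, and they held 15.5% of all PBS and 9.73% of all DT UMIs of Foxp3.

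By level, Foxp3 in the CD4 gate was at 73.9 CPM in PBS (194 UMIs) and 91.6 CPM in DT (203 UMIs), a log2 ratio of 0.29 with 5 CPM added to both sides (ratio 1.24, interval 1.01 to 1.52). The order of the gates was the same in both libraries: CD4, then Cd3e-only (61.9 and 74.4 CPM), then the mixed T gate (54.8 and 64.9 CPM), whose counting intervals overlapped from neighbour to neighbour. Without CD4-gated cells that also carried Csf1r, Csf3r, Cd79a or Ncr1, the levels were 101 and 106 CPM and the log2 ratio was 0.06. Among Foxp3-positive cells the median was 3 UMIs of Foxp3 per cell in PBS and 2 in DT, and the most in any cell of the gate was 9 in each.

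**Figure D1:**
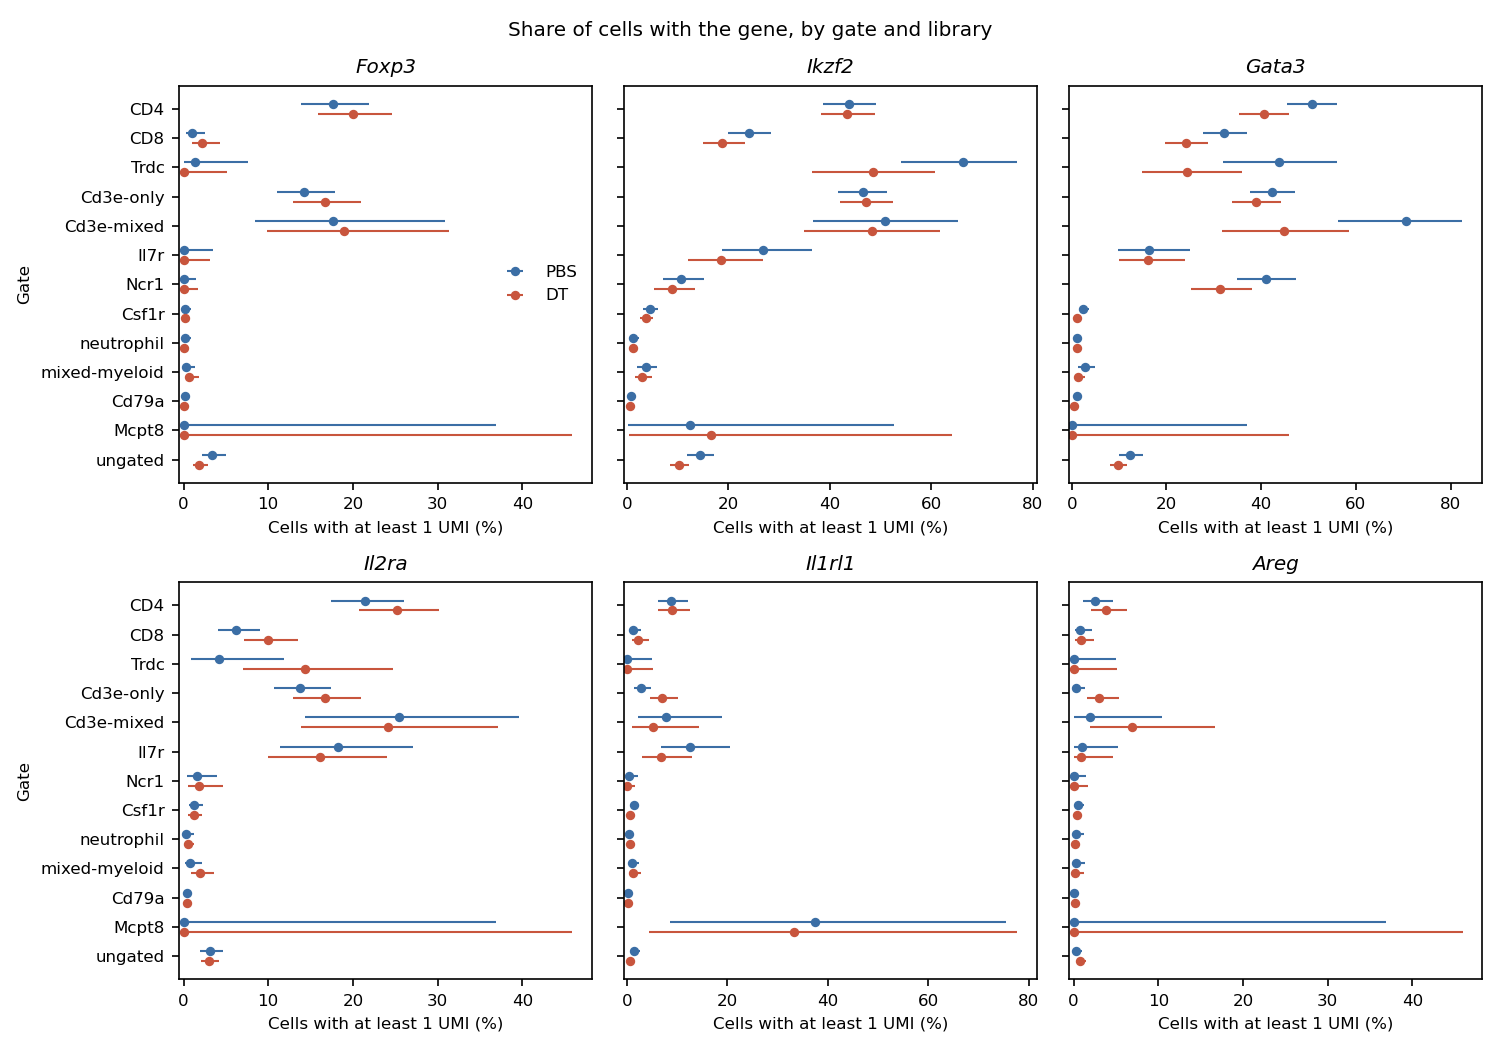
Share of cells with at least 1 UMI of each gene (x axis, percent) in 13 exclusive gates (y axis), PBS in blue and DT in red, with exact 95% binomial intervals. Foxp3 stays between 14.3% and 20.0% in the CD4, Cd3e-only and mixed T gates and under 4% elsewhere, while Gata3 points of DT lie left of PBS in all 5 T gates.

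Ikzf2 was detected in the same proportion of CD4-gated cells in both libraries, with 159 of 363 PBS cells (43.8%) and 150 of 345 DT cells (43.5%). Its summed level was higher in DT, at 336 CPM in PBS against 467 CPM in DT (log2 ratio 0.47, ratio interval 1.27 to 1.52). The carriers in DT thus held more molecules each, with a median of 6.15 Ikzf2 UMIs per 10000 UMIs of a carrier in PBS and 7.19 in DT. In Foxp3-positive cells of the gate Ikzf2 was at 950 CPM in PBS against 1369 CPM in DT (log2 ratio 0.53, interval 1.29 to 1.62), and in 62 of 64 and 65 of 69 cells. In Foxp3-negative CD4-gated cells the levels were 173 and 183 CPM (log2 ratio 0.07, interval 0.90 to 1.23). Whether the 2 ratios differ was not tested.

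Helios is also known in gamma-delta and CD8 T cells, and Ikzf2 was found in both. In the Trdc gate it was detected in 47 of 71 PBS and 34 of 70 DT cells, with 369 and 252 CPM, a difference in the other direction (log2 ratio -0.54, interval 0.51 to 0.91). In the CD8 gate the share was lower in DT (97 of 404 against 68 of 361 cells) and the level higher (73.9 against 116 CPM). Levels were highest in the Cd3e-only gate, at 474 and 529 CPM. Within sex-called cells of the CD4 gate the Ikzf2 ratio was 0.68 on the log2 scale for male-called cells and -0.10 for female-called cells, the latter resting on 14 PBS cells. Male-called Foxp3-positive cells of the gate had 941 CPM in 38 PBS cells and 1577 CPM in 7 DT cells (Ikzf2 log2 ratio 0.74), and 1 female-called PBS cell was Foxp3-positive.

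Gata3, a factor of type 2 lymphocytes that T cells need from early in their development, went the other way. It was detected in 184 of 363 PBS cells of the CD4 gate (50.7%, interval 45.4 to 55.9%) and in 140 of 345 DT cells (40.6%, 35.4 to 46.0%). Its level was 181 CPM in PBS and 134 CPM in DT (log2 ratio -0.42, ratio interval 0.64 to 0.86). Carriers had medians of 2.78 and 2.94 UMIs per 10000 and means of 2.59 and 2.13 UMIs. The ratio of the shares was 0.80 (interval 0.64 to 1.00). At 1000 UMIs per cell the expected shares were 15.9% and 12.7%.

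The share with Gata3 was lower in DT in all 5 T gates. It was 32.2% against 24.1% in the CD8 gate, 43.7% against 24.3% in the Trdc gate, 42.3% against 38.9% in the Cd3e-only gate and 70.6% against 44.8% in the mixed T gate. The DT cells were shallower in several of these gates, with median depths of 6105.5 against 5458 UMIs (CD8), 4578 against 3336.5 (Trdc) and 7978 against 5680 (mixed T). At 1000 UMIs per cell the expected shares lay closer, at 6.42% and 5.08% in the CD8 gate, 11.6% and 9.41% in the Trdc gate, 16.1% and 15.3% in the Cd3e-only gate, and 17.2% and 13.4% in the mixed T gate. In the Ncr1 gate of natural killer cells the share was 41.1% against 31.3%. The levels in these gates differed less than the shares, and of the 5 T gates the interval of the ratio of levels left out 1 in the CD4 gate alone. In Foxp3-positive cells of the CD4 gate Gata3 was at 271 CPM in PBS against 220 CPM in DT (log2 ratio -0.30, interval 0.63 to 1.04). In Foxp3-negative cells it was at 158 and 107 CPM (log2 ratio -0.53, interval 0.57 to 0.82). Over all cells with Cd3e, the Foxp3-positive cells had 267 and 268 CPM, and the Foxp3-negative cells 113 and 85.5 CPM. Foxp3-positive cells of single gates differed among themselves. Those of the CD8 gate, 4 PBS and 8 DT cells, had 599 and 321 CPM (interval 0.31 to 0.96). Of the 23 Gata3 UMIs of these 4 PBS cells, 18 lay in 1 cell, so that level rests largely on it. Those of the Cd3e-only gate had 260 and 327 CPM (0.93 to 1.71). Male-called Foxp3-positive cells with Cd3e had 285 CPM in 84 PBS cells and 103 CPM in 12 DT cells (interval 0.16 to 0.70), and female-called ones 321 CPM in 5 PBS cells and 310 CPM in 93 DT cells (0.52 to 2.04). The difference between Foxp3-positive and Foxp3-negative cells was not tested. In the CD4 gate a lower level was seen in male-called cells (log2 ratio -0.84) and in female-called cells (-1.14).

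Il2ra, the receptor chain that gives high affinity for IL-2, was higher in DT. It was detected in 78 of 363 PBS cells of the CD4 gate (21.5%, interval 17.4 to 26.1%) and in 87 of 345 DT cells (25.2%, 20.7 to 30.1%). Its level was 69.0 CPM in PBS and 129 CPM in DT (log2 ratio 0.86, ratio interval 1.55 to 2.27). In Foxp3-positive cells of that gate it was at 213 and 389 CPM (log2 ratio 0.86, interval 1.45 to 2.31), in 39 of 64 and 43 of 69 cells. Shares were alike there and the amount per carrier was not, with medians of 2.89 and 4.27 UMIs per 10000. Over all Foxp3-positive cells with Cd3e the levels were 242 and 324 CPM, a smaller log2 ratio of 0.42 (interval 1.13 to 1.59). In male-called cells of the CD4 gate the log2 ratio was 0.97, although 59 of 206 PBS cells (28.6%) and 8 of 34 DT cells (23.5%) carried Il2ra. Of the 34 Il2ra UMIs of these DT cells, 21 lay in 1 cell. Female-called cells of the gate had 1 UMI in 14 PBS cells and 180 UMIs in 190 DT cells.

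In the CD4 gate the higher Il2ra level of DT was not limited to Foxp3-positive cells. Foxp3-negative cells of the CD4 gate had 30.8 CPM in PBS and 46.9 CPM in DT (log2 ratio 0.53, interval 1.08 to 2.15). The CD8 gate, where activated effector cells also carry CD25, had 17.3 and 37.4 CPM (log2 ratio 0.93, interval 1.54 to 3.08). The Cd3e-only gate had 54.4 and 76.6 CPM (0.46, interval 1.09 to 1.83). Within that gate the Foxp3-positive cells had 200 and 307 CPM (interval 1.10 to 2.15). Its Foxp3-negative cells went the other way, with 30.3 and 21.2 CPM (interval 0.43 to 1.11). The mixed T gate was the exception among the T gates with at least 20 UMIs, with 110 and 80.6 CPM (-0.42, interval 0.47 to 1.14). In the Cd79a gate 6 of 1389 and 4 of 1073 cells had an Il2ra UMI.

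Il1rl1, the IL-33 receptor ST2, was a low gene carried by few T cells. In the CD4 gate 32 of 363 PBS cells (8.82%) and 31 of 345 DT cells (8.99%) had a UMI, and its level was 17.1 CPM (45 UMIs) in PBS and 31.1 CPM (69 UMIs) in DT (log2 ratio 0.71, ratio interval 1.23 to 2.71). In Foxp3-positive cells of the gate it was at 34.6 and 69.6 CPM (log2 ratio 0.91, interval 1.13 to 3.70), although 14 PBS and 12 DT cells carried it. The carriers differed in amount, with medians of 1.83 and 4.67 UMIs per 10000 and at most 3 and 8 UMIs in a cell. A mean of the deposited log2 values, which weights each cell's detection, gave -0.10 for the same cells.

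In the Cd3e-only gate both share and level of Il1rl1 were higher in DT, with 12 of 428 against 25 of 360 cells and 11.0 against 33.6 CPM (log2 ratio 1.27, interval 1.85 to 5.23). Over all cells with Cd3e and Foxp3 there were 26 carriers among 139 PBS cells (18.7%, interval 12.6 to 26.2%) and 37 among 148 DT cells (25.0%, 18.3 to 32.8%), and the levels were 42.4 and 98.0 CPM (log2 ratio 1.12, interval 1.60 to 3.40). The Il1rl1 ratio did not hold in every set of sex-called cells. Male-called cells of the CD4 gate had 31 UMIs in 206 PBS cells and 1 UMI in 34 DT cells (log2 ratio -1.21), and female-called cells 1 UMI in 14 PBS cells and 51 UMIs in 190 DT cells (1.20). Among Foxp3-positive cells of that gate, male-called cells had 13 Il1rl1 UMIs in 38 PBS cells and 0 in 7 DT cells, and female-called cells 1 UMI in 1 PBS cell and 26 in 39 DT cells. Over all Foxp3-positive cells with Cd3e these counts were 28 UMIs in 84 and 0 in 12 male-called cells, and 1 in 5 and 84 in 93 female-called cells. The pooled values therefore compare mostly male-called PBS cells with mostly female-called DT cells, and sex-linked RNA and group cannot be told apart for them.

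**Figure D2:**
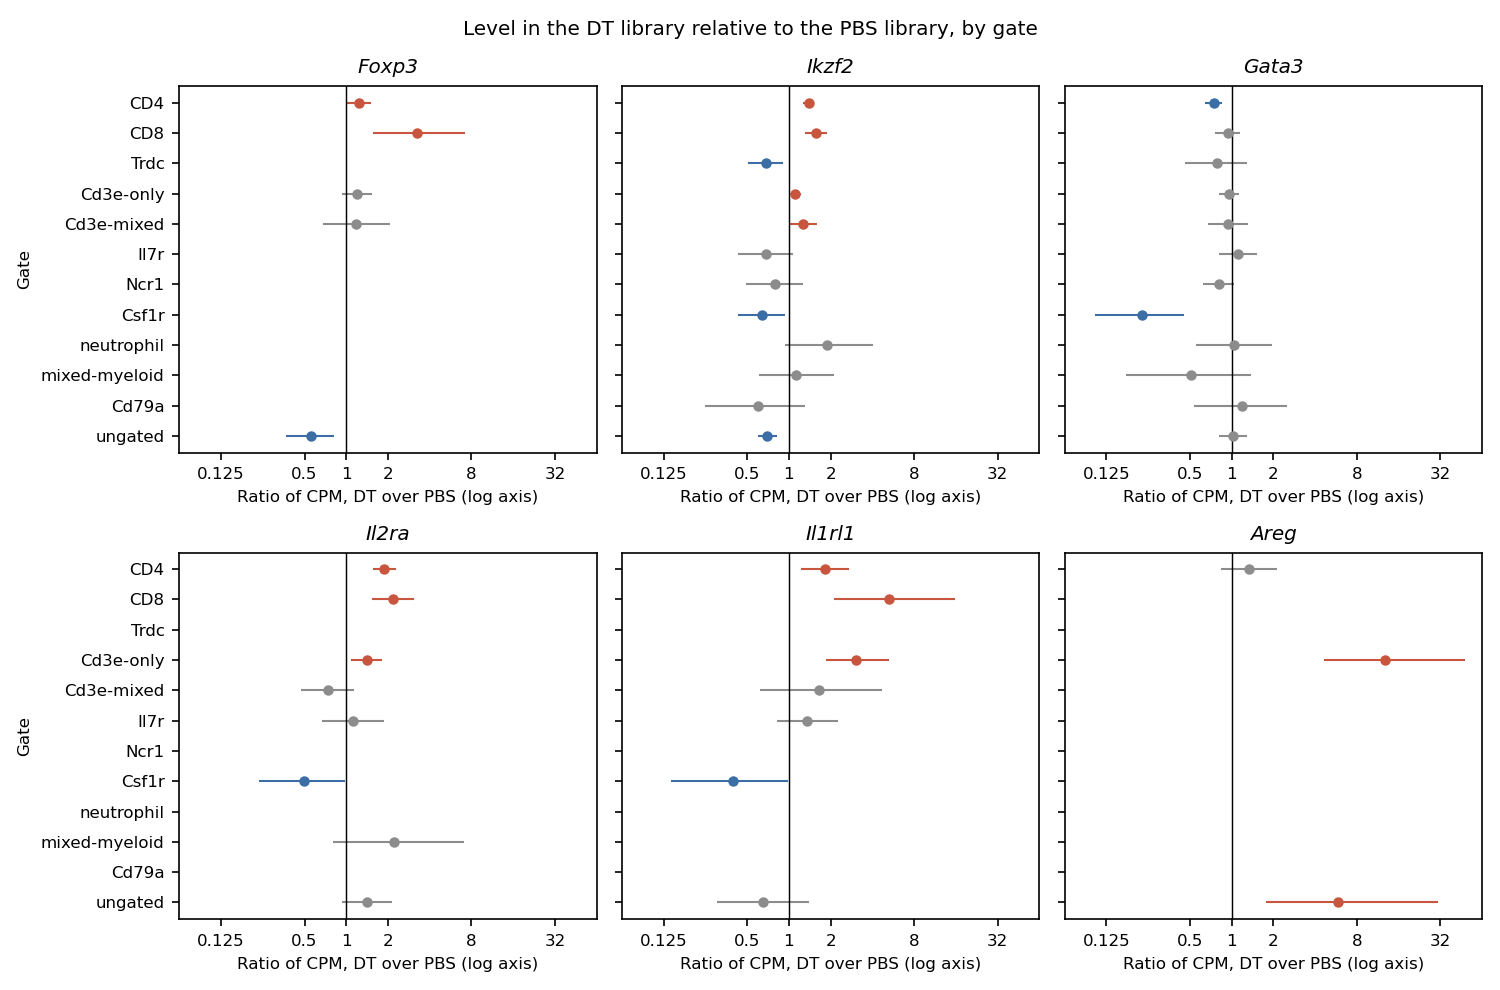
Ratio of each gene's CPM in DT over PBS (x axis, log scale) by gate (y axis), with exact 95% intervals, for gates with at least 20 UMIs over both libraries; red marks intervals above 1, blue below 1 and grey those that include 1. Il2ra, Ikzf2 and Il1rl1 lie above 1 in the CD4, CD8 and Cd3e-only gates and below 1 in the Csf1r gate, and Gata3 lies below 1 in the CD4 and Csf1r gates. Il1rl1 in the CD8 gate rests on 6 PBS and 25 DT UMIs.

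Areg, the growth factor, was the rarest of the 6. Over all cells with Cd3e, 14 of 1317 PBS cells (1.06%, interval 0.58 to 1.78%) and 31 of 1194 DT cells (2.60%, 1.77 to 3.67%) had a UMI, with 51 and 99 UMIs in all. In the Cd79a gate 0 of 1389 and 2 of 1073 cells did. In the CD4 gate the counts were 9 and 13 cells and the levels 14.5 and 19.4 CPM (log2 ratio 0.33, interval 0.85 to 2.13).

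One PBS cell decided much of the Areg level. It lay in the CD4 gate, held 18778 UMIs in total, was Foxp3-positive with 25 Ikzf2 UMIs, and carried 23 of the 38 Areg UMIs of its gate. In Foxp3-positive cells of the CD4 gate Areg was found in 4 of 64 PBS and 9 of 69 DT cells, while the summed level was 51.0 CPM in PBS and 39.5 CPM in DT (log2 ratio -0.33, interval 0.42 to 1.41). Without the richest cell of each library these levels were 9.42 and 26.8 CPM (log2 ratio 1.14), so direction turned on single cells.

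The number of Areg carriers differed most among T cells without a subset gene. In the Cd3e-only gate 1 PBS cell had 4 Areg UMIs and 11 DT cells had 46 (2.00 and 25.4 CPM; ratio 12.7, interval 4.63 to 48.6). Of the 46 UMIs, 17 lay in 1 DT cell and 11 in another, and 5 of the 11 carriers had 1 UMI. The level and its ratio thus rest largely on few cells. Over all Foxp3-positive cells with Cd3e, Areg was carried by 7 of 139 PBS cells (5.04%, interval 2.05 to 10.1%) and 20 of 148 DT cells (13.5%, 8.45 to 20.1%), at 37.2 and 62.3 CPM (log2 ratio 0.67, interval 1.10 to 2.58). At 1000 UMIs per cell the expected shares were 1.32% and 5.11%. The median depth of these Foxp3-positive cells was 4449 UMIs in PBS and 5433 in DT. Without CD4-gated cells that carried genes of other lineages, the CD4-gate levels of Areg were 19.8 and 7.56 CPM (log2 ratio -0.98).

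In all, 2 of the 6 genes in the CD4 gate were past a ratio of 1.5 with an interval without 1, Il2ra and Il1rl1, both higher in DT. Of the 11215 genes with at least 20 UMIs in that gate, 4.7% were called higher and 2.61% lower by the same rule, and the median log2 ratio of all of them was 0.05. In Foxp3-positive cells of the gate Il2ra and Il1rl1 were again called higher, of 5 genes besides Foxp3 (Il1rl1 had 0 UMIs in the 7 male-called DT cells), where 5.26% of 6726 genes were called higher and 3.23% lower. Ikzf2, at ratios of 1.39 and 1.44, and Gata3 in the CD4 gate, at 0.74, had intervals without 1 but did not reach the fold. Beside these results, the 6 neutrophil markers summed to 976 CPM in the PBS and 4400 CPM in the DT Foxp3-positive cells of the gate, the 6 phagocyte markers to 5506 and 2316 CPM, and none of the 12 was at 0. Without cells that carried Csf1r, Csf3r, Cd79a or Ncr1 the log2 ratios in Foxp3-positive cells were 1.00 for Il2ra, 0.68 for Ikzf2, 0.92 for Il1rl1 and -0.10 for Gata3.

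Within each library, Foxp3-positive cells of the CD4 gate were set against the Foxp3-negative cells of the same gate. The positive cells were deeper, with a median of 6303.5 against 4496 UMIs in PBS and 6554 against 4416 in DT. A cell without a Foxp3 UMI is not shown to lack the gene. Il2ra was 6.91 times as high in the positive cells in PBS (interval 5.05 to 9.52) and 8.31 times in DT (6.38 to 10.9). Ikzf2 was 5.48 times as high in PBS and 7.49 times in DT, and Gata3 1.72 and 2.05 times. Il1rl1 was 2.76 and 3.66 times as high, with few UMIs. For Areg the ratios were 10.6 in PBS, where the single rich cell counts among the positive cells, and 3.03 in DT. At 1000 UMIs per cell, the expected share with Il2ra was 19.7% in positive and 2.84% in negative PBS cells, and 27.9% and 4.02% in DT. Of 5943 genes with at least 50 UMIs of the gate in each library, 3.7% were called higher and 2.56% lower in Foxp3-positive cells of both libraries. Il2ra, Ikzf2 and Gata3 were the 3 genes of the set that could be tested by this rule, and all 3 were called higher.

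**Figure D3:**
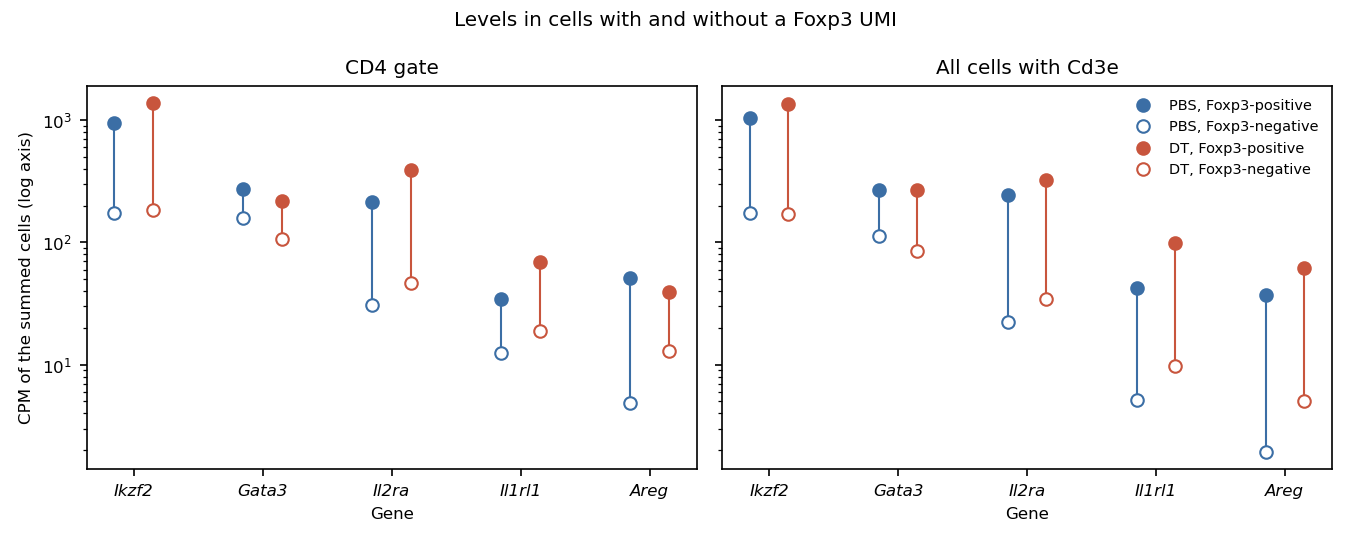
Summed level in CPM (y axis, log scale) of each gene in cells with (filled) and without (open) a Foxp3 UMI, joined by a line, for the CD4 gate (left) and all cells with Cd3e (right), PBS in blue and DT in red. For each of the 5 genes the filled point lies above the open one in both libraries, and the Gata3 pair is the closest.

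The 10 genes that most marked Foxp3-positive over Foxp3-negative cells of the CD4 gate in both libraries were Klrg1, Il2ra, Ikzf2, Gm28112, Ctla4, Hopx, Gzmb, Arl5a, Gimap7 and Glrx. Klrg1, a receptor of differentiated effector lymphocytes, was at 142 CPM in positive and 8.67 CPM in negative PBS cells, and at 86.5 and 9.50 CPM in DT. Ctla4, the inhibitory receptor through which regulatory T cells restrain antigen-presenting cells, was at 548 against 115 CPM in PBS and 944 against 182 CPM in DT. Gzmb, a cytotoxic protease, was at 306 against 76.6 CPM in PBS and at 967 CPM in the DT positive cells. Genes of naive or memory T cells stood lower in positive cells, such as Tcf7 (54.6 against 172 CPM in PBS, 22.6 against 196 CPM in DT) and Bach2 (3.64 against 23.6 CPM, and 1.88 against 33.8 CPM). Gm28112 overlaps Ikzf2, so its place among these genes is not independent of Ikzf2.

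The 6 genes overlapped cell by cell. Of the Foxp3-positive cells with Cd3e, Ikzf2 was found in 131 of 139 in PBS and 142 of 148 in DT, Gata3 in 93 and 96, and Il2ra in 73 and 92. Gata3 was found in 25 of 26 Il1rl1 carriers among them in PBS (96.2%) and in 30 of 37 in DT (81.1%), against 68 of 113 (60.2%) and 66 of 111 (59.5%) of the Foxp3-positive cells without Il1rl1. Every one of the 26 and 37 Il1rl1 carriers held Ikzf2. Areg was found in 3 of 26 and 8 of 37 Il1rl1 carriers, against 4 of 113 and 12 of 111 of the others. All 7 PBS and 20 DT Areg carriers held Ikzf2, and 6 and 14 of them held Il2ra. Cells of 1 library share its depth and free RNA, and deeper cells show more genes, so these counts describe co-detection in these cells.

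**Figure D4:**
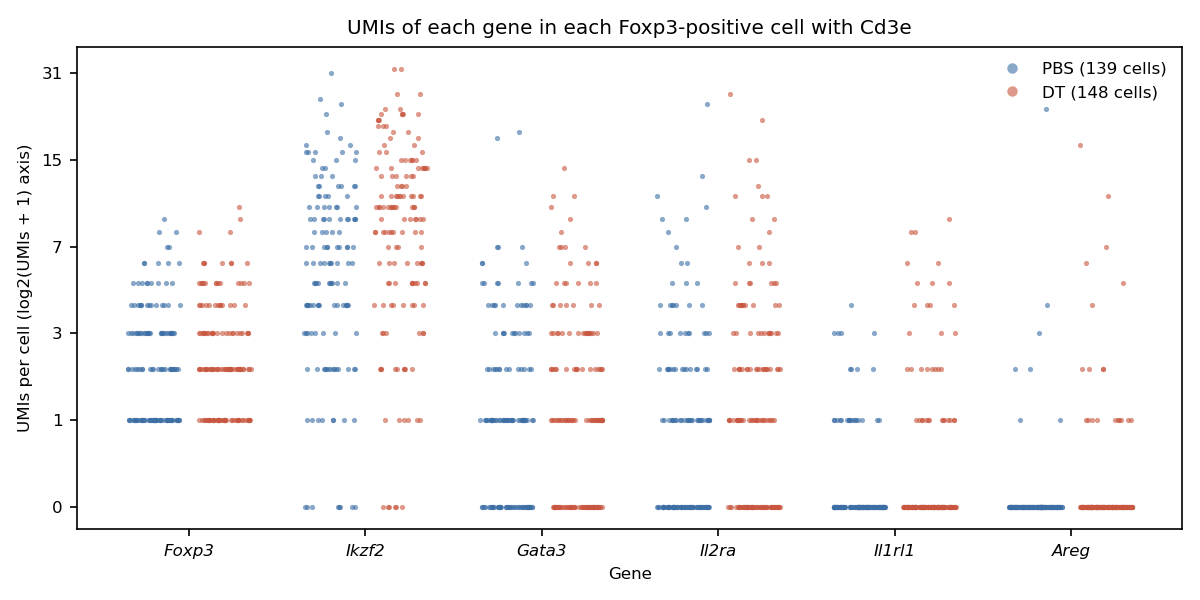
UMIs of each gene (y axis, log2(UMIs + 1) scale) in each of the 139 PBS (blue) and 148 DT (red) Foxp3-positive cells with Cd3e; points are spread sideways to be seen. Ikzf2 points of DT sit higher, up to 32 UMIs, Il1rl1 reaches 4 UMIs in PBS and 9 in DT, and 1 PBS point with 23 Areg UMIs stands above the rest of its library.

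Outside the T gates, Il1rl1 and Gata3 were found together in a different population. The Il7r gate (Il7r without Cd3e, Cd3d, Cd3g or the other lineage genes) held 104 PBS and 118 DT cells and no Foxp3. Il1rl1 was carried by 13 and 8 of them, and Gata3 by 12 of the 13 and 7 of the 8, against 5 of 91 and 12 of 110 cells without Il1rl1. Il2ra was in 8 of the 13 and 4 of the 8 carriers. Areg was in 1 cell of each library. Most of the gate was not of this kind. The 6 dendritic cell markers summed to 2364 and 2245 CPM in it and the 6 phagocyte markers to 10293 and 13587 CPM. The 7 markers of type 2 innate lymphoid cells that were examined summed to 98.1 and 118 CPM. Il13 had 2 UMIs in PBS and 0 in DT, so the gate is called by its rule.

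The Mcpt8 gate, meant for basophils, held 8 PBS and 6 DT cells. The basophil genes Gata2 and Hdc were each found in 6 of the 8 and 5 of the 6. With Cd200r3 they summed to 2695 CPM in PBS and 1397 CPM in DT here. In the neutrophil gate the same 3 genes summed to 1892 and 2190 CPM, so their sum did not mark the Mcpt8 gate alone. Cd200r3, the other basophil gene with a column, had no UMI in the PBS cells of the gate. It was found in DT cells, with at most 6 UMIs in a cell. Il1rl1 was in 3 of them in PBS (4 UMIs) and in 2 in DT (5 UMIs), and Foxp3, Il2ra, Areg and Gata3 were at 0, which in so few cells allows shares of cells with a UMI of up to 37.5% and 50% by a limit of 3 cells. In the Csf1r gate of monocytes and macrophages (869 and 836 cells) Gata3 had 50 UMIs in PBS and 10 in DT (log2 ratio -0.85, ratio interval 0.10 to 0.45). Ikzf2 (log2 ratio -0.40) and Il1rl1 (-0.34) were lower there too. Il2ra had 30 and 13 UMIs (-0.37), but 1 PBS cell held 15 of them, and without the richest cell of each library the levels were 2.05 and 1.56 CPM (-0.11). Left out in the same way, the log2 ratios were -0.80 for Gata3, -0.38 for Ikzf2 and -0.29 for Il1rl1. All 4 were in under 5% of the cells of that gate, in which the 6 T cell markers summed to 49.3 CPM in PBS and 35.7 CPM in DT. In the neutrophil gate (Csf3r with S100a8, 594 and 944 cells) none of the 6 genes was found in more than 1.18% of cells.

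Genes around the 6 were followed in lists of known function, in Foxp3-positive cells of the CD4 gate and again by the fold of 1.5 and an interval without 1. Over all genes tested there, 5.26% were called higher and 3.23% lower. Of 23 effector and surface genes of regulatory T cells with at least 20 UMIs, 3 were called higher in DT and 3 lower, and the list's median log2 ratio was 0.30, beside 0.04 for all genes. The higher genes were the suppressive cytokine Il10 (25.5 to 71.5 CPM, log2 ratio 1.33), Ebi3, a subunit of IL-35 (10.9 to 30.1 CPM, 1.14), and Ctla4 (548 to 944 CPM, 0.78). The lower ones were the chemokine receptor Cxcr6 (184 to 32.0 CPM, -2.35), Cd83 (78.3 to 15.0 CPM, -2.05) and Klrg1 (142 to 86.5 CPM, -0.68). Cd83 is also a gene of mature dendritic cells, and the 6 dendritic cell markers summed to 207 CPM in these PBS cells (2 of 6 at 0) and 20.7 CPM in the DT cells (4 of 6 at 0). Their part in the result was not tested.

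The counts that follow stand beside 5.26% of all genes called higher and 3.23% called lower in Foxp3-positive cells of the gate. Of 12 other genes of tissue regulatory T cells and repair, 4 were called higher, with a list median of 0.01. They were Penk, which encodes a precursor of opioid peptides (18.2 to 77.1 CPM), the protease Furin (76.4 to 149 CPM), the effector factor Prdm1 (41.9 to 82.8 CPM) and Nfil3 (45.5 to 79.0 CPM). Penk was higher still in the Foxp3-negative cells of the gate, with 151 CPM in PBS and 506 in DT. In the IL-2 pathway 1 of 12 genes was called higher, the feedback inhibitor Cish (52.8 to 92.2 CPM), and 1 lower, the survival factor Bcl2 (60.1 to 28.2 CPM). Il2rb, the beta chain that signals with CD25, was at 355 and 504 CPM, with a log2 ratio of 0.50 and an interval above 1 that did not reach the fold. Of 15 partners of Foxp3 and other T cell transcription factors, Ikzf4, a relative of Helios, was called higher (41.9 to 82.8 CPM) and Tcf7 lower (54.6 to 22.6 CPM).

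The whole CD4 gate, Foxp3-positive and Foxp3-negative cells together, gave other counts for these lists. Over all genes tested in it, 4.7% were called higher and 2.61% lower. Of 26 effector and surface genes 4 were called higher and 0 lower (median log2 ratio 0.26): Il10 (9.90 to 24.8 CPM), Ccr4, a chemokine receptor (8.76 to 20.8 CPM), Ctla4 (206 to 365 CPM) and the integrin chain Itgae (12.2 to 20.3 CPM). Cxcr6 was below the fold there (275 and 205 CPM). Of 15 tissue and repair genes 3 were called higher, Penk (123 to 403 CPM), Tnfrsf8 (4.57 to 11.3 CPM) and Prdm1 (29.7 to 49.2 CPM), and the factor Irf4 lower (21.7 to 13.1 CPM). None of the 14 genes of the IL-2 pathway was called, with a list median of 0.30, and 6 of them had intervals above 1 that did not reach the fold. Bcl2 was among these, at 165 and 238 CPM, the reverse of its order in Foxp3-positive cells. Of 17 partners and other factors, Ikzf4 was called (19.0 to 30.7 CPM), and 0 of 7 genes on the IL-33 side were.

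Among Foxp3-positive cells 1 of 5 genes on the IL-33 side was called, the adaptor Myd88, which signals below ST2 (71.0 to 39.5 CPM, lower). Over all genes of these cells, 5.26% were called higher and 3.23% lower. Of the EGF family and the proteases that release its ligands, Adam17 and Adam10 could be tested and neither was called, at log2 ratios of -0.04 and -0.37. In the whole CD4 gate Hbegf, another EGF receptor ligand, had 10 UMIs in PBS and 21 in DT and was called higher. Of the type 2 genes, Il4ra and Stat6 were not called, and the factor Bhlhe41 was lower in the CD4 gate (44 to 8 UMIs). Early response genes, which cell handling can induce, were also higher beside Il2ra: 5 of 12 in Foxp3-positive cells, led by Nr4a1 (36.4 to 120 CPM), Egr1 (96.5 to 246 CPM) and Zfp36 (257 to 455 CPM). Hspa1a was lower (52.8 to 11.3 CPM). Their part in the Il2ra result, and in the counts of Areg carriers, was not tested.

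Genes whose pattern over gates was most like that of each of the 6 were ranked by Pearson correlation of log2(CPM + 5) over 20 points, 10 gates in each of 2 libraries. The points share libraries, depth and free RNA, so r is a description. For Foxp3 the closest were A630023P12Rik (r = 0.97), Ctla4 (0.96), Gm28112, Cd40lg and Ccr4. For Ikzf2 they were Icos (0.97), Gm28112, Cd28, Tesc and Camk4. Among the closest to Gata3 were Tnfrsf18 (0.96), Sla2 and Tnfrsf9. For Il2ra they were Tnfrsf25 (0.96), Tnfrsf4, Ikzf4, Rora and Aebp2. For Il1rl1 they were Ikzf4 (0.93), Ramp3, Fam110a, Rab26 and Tnfrsf25. For Areg, the gene with the fewest UMIs, they were Map6 (0.92), Ncmap, Apol9b, Itgb8 and Il21.

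**Figure D5:**
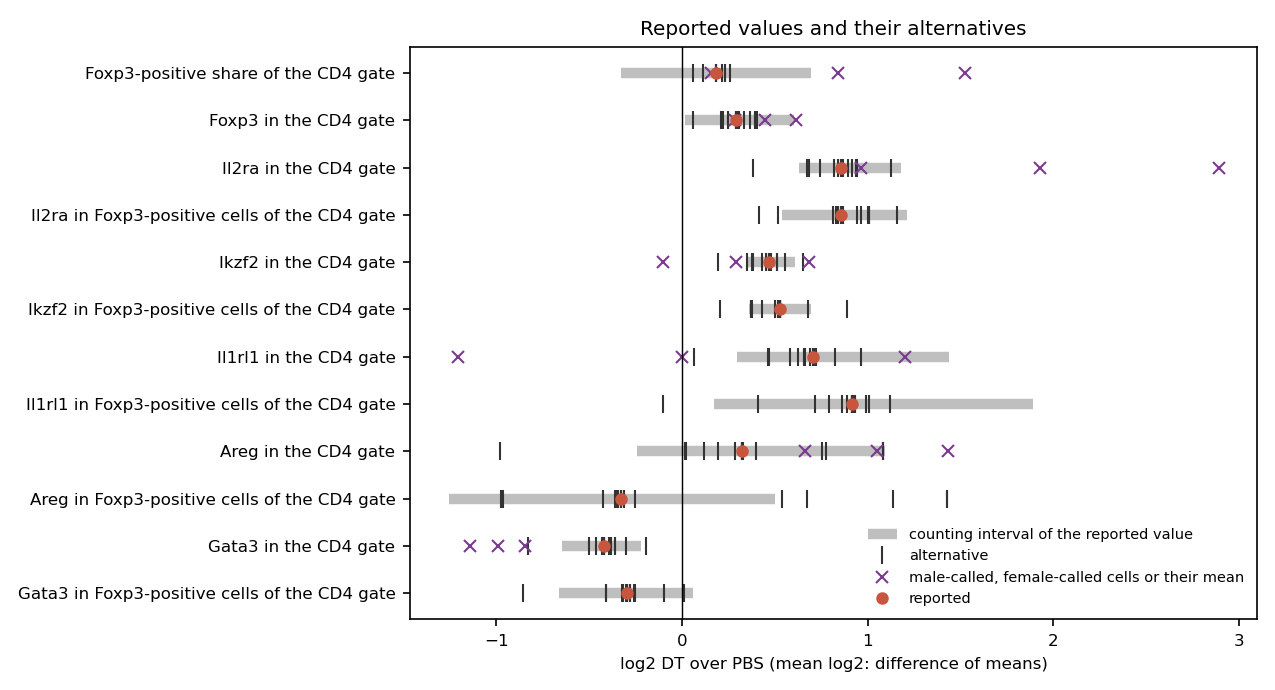
log2 DT over PBS (x axis) of 12 values of the CD4 gate (y axis) as reported (red), with their counting intervals (grey), under other ways of processing (black ticks) and within male-called or female-called cells (purple crosses). Il2ra keeps to the right of 0 and Gata3 of the whole gate to the left in each case drawn, while Il1rl1 and Areg fall on both sides. For Il2ra the female-called value rests on 1 PBS UMI. Its male-called value rests on 34 DT UMIs, 21 of them in 1 cell.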

How the data were processed

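Live CD45-positive lung cells of 1 PBS and 1 DT library were measured. The values the authors deposited are log2(CPM + 1) for each gene in each cell. STAR, Partek, Seurat and mm10 are named per the submitters' processing notes, and their versions and settings were not given in the sources used here. Counts had been assumed in the design. Undoing the log2 and dividing by the smallest value of each cell made 100% of values whole within 1%, and these UMIs were used. The genes and lists were chosen with earlier results of these data known. Scripts ran in Python 3.11.15 with numpy 2.4.6, scipy 1.17.1, pandas 2.3.3 and matplotlib 3.10.9.

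Cells under 200 genes or 500 UMIs, or above 10% mitochondrial UMIs, were left out. Scrublet (scanpy 1.11.5, expected rate 6%) called 3 PBS cells and 0 DT cells, under 0.5%, so no doublet was removed, and leaving out the highest scores was an alternative. Gates used at least 1 UMI and were exclusive, giving 13 populations. Shares have Clopper-Pearson intervals. UMIs were summed per gate, scaled to CPM, and compared with 5 CPM added, with conditional binomial intervals of the ratio without it. UMIs of 1 cell are not independent molecules of the group, so intervals cover counting error only. A gene was called at 20 UMIs, a ratio of 1.5 and an interval without 1. Shares at 1000 UMIs are hypergeometric expectations over cells of at least that depth. Sex calls used Xist and 4 Y-linked genes. The named genes were the 6, up to 3 highest and 3 lowest called genes of each of 8 lists, list genes whose interval in the CD4 gate left out 1, the 10 leading genes of Foxp3-positive cells and the 5 most alike, some of which are not reported here; Bach2, Adam10, Adam17 and Stat6 were added after their values were seen. Of 119 list entries 111 have a column in the tables; the others and 6 further markers were not analysed here. The rule of fold and interval was run on simulated Poisson counts without variation between cells or mice. Gating, recovery of UMIs, sex calls and thinning were not part of that simulation. In all, 19 alternatives were tried, 3 of them added after seeing the data.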

Additional observations from a re-analysis of the deposited data

Results flagged for a closer look

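Differences between gates under the same DT against PBS contrast are given as log2 ratios where the counting interval of one gate lies above 1 and that of the other below 1. Mixed and ungated cells stand at the end. With 1 library per group the differences between gates were not tested. Il2ra was higher in DT in the CD4 gate (0.86), the CD8 gate (0.93) and the Cd3e-only gate (0.46), and lower in the Csf1r gate (-0.37), where 1 PBS cell held 15 of 30 UMIs and the value without the richest cells was -0.11. Ikzf2 was higher in the CD4 gate (0.47), the CD8 gate (0.62) and the Cd3e-only gate (0.16), and lower in the Trdc gate (-0.54) and the Csf1r gate (-0.40). Il1rl1 was higher in the CD4 gate (0.71), the CD8 gate (1.12) and the Cd3e-only gate (1.27), and lower in the Csf1r gate (-0.34). Its CD8 value rests on 6 UMIs in 5 of 404 PBS cells and 25 UMIs in 8 of 361 DT cells. Foxp3-positive cells held 15 of the 25, and 1 DT cell held 9. By the same rule Ikzf2 was higher in the mixed T gate (0.34) and lower in the ungated cells (-0.49). Foxp3 was higher in the CD4 gate (0.29) and the CD8 gate (0.93) and lower in the ungated cells (-0.65).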

How the results depend on the processing

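Of 206 recomputed values over 12 results and 19 settings, 174 stayed within the counting interval of the reported value, 28 left it and 4 reversed a value whose interval left out no change. Some of the 174 could not differ. Dropping the cell filter, asking for 500 genes and 1000 UMIs, and leaving out shared barcodes kept the same CD4-gated cells. Those settings repeated the reported values. For levels, thinning to 1000 UMIs gave the same values as the mean CPM over cells. All values are log2 DT over PBS. No paired analysis was possible because each group is 1 library. The cause of these shifts was not tested.

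In female-called cells, which rest on 14 PBS cells, the values were 1.52 for the Foxp3 share, 0.61 for Foxp3, 2.89 for Il2ra, -0.10 for Ikzf2 (reversed), 1.43 for Areg and -1.14 for Gata3 in the CD4 gate. In male-called cells they were 0.68 for Ikzf2, -1.21 for Il1rl1 (reversed) and -0.84 for Gata3. The means of both were 0.84 for the Foxp3 share, 1.93 for Il2ra, 0.29 for Ikzf2, -0.0023 for Il1rl1 (reversed) and -0.99 for Gata3. Of these, the Il2ra mean rests on 1 PBS UMI in female-called cells. In male-called cells it rests on 34 DT UMIs, 21 of them in 1 cell. These settings were not run for Foxp3-positive cells of the gate, which had 7 male-called DT cells and 1 female-called PBS cell, under the 10 set.

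The mean of the deposited log2 values gave, in the CD4 gate, 0.38 for Il2ra, 0.19 for Ikzf2, 0.0636 for Il1rl1 and -0.83 for Gata3. In its Foxp3-positive cells it gave 0.52 for Il2ra, 0.21 for Ikzf2, -0.10 for Il1rl1 (reversed), 0.54 for Areg and -0.86 for Gata3. All Cd3e-positive cells gave 0.42 for Il2ra and 0.67 for Areg among Foxp3-positive cells, and -0.19 for Gata3. At least 2 Cd4 UMIs gave 0.65 for Ikzf2 and 0.89 in Foxp3-positive cells. Areg in the CD4 gate was -0.98 without cells of other lineages. Areg in Foxp3-positive cells was 1.43 as a mean CPM over cells and 1.14 without its richest cell. The setting thinned to 1000 UMIs is, for levels, the same calculation as that mean and is no separate check.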
